A study of Mus musculus with 11 samples.

Results

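The 9 genes described here encode the core of the hedgehog signalling pathway: the ligands Dhh, Ihh and Shh, the membrane and ligand-binding proteins Ptch1, Hhip and Smo, and the transcription factors Gli1, Gli2 and Gli3. They were chosen by symbol, as the rows of the aortic count table that carry these names, and make up 9 of its 27179 genes. Of the 9 genes, 8 passed the filter on low counts, and Shh did not. The choice rests on no threshold, but it was made with earlier results of these libraries known, so counts of members past a test describe these libraries and are not independent support for any pattern.

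RNA was sequenced from whole mouse aorta (arch, thoracic and abdominal parts) after the fat around the vessel had been removed. The 3 KO_HFD_LNAME libraries came from Mpst knockout mice, which lack the enzyme mercaptopyruvate sulfurtransferase, kept on a high-fat diet (HFD, 45% of calories from fat) and then also given L-NAME, an inhibitor of nitric oxide synthases. The 4 WT_HFD_LNAME libraries came from wild-type mice on the same diet and inhibitor, and the 4 WT_CD libraries from wild-type mice on a chow diet (CD, 10% of calories from fat) without the inhibitor. The mice were C57BL6/J and 6 to 7 weeks old at the start, per the labels. High-fat feeding lasted 15 weeks and the inhibitor phase 5 weeks beyond that. Chow feeding is labelled as 15 weeks, so that diet, inhibitor and possibly age cannot be told apart between treated and chow mice. How the knockout allele was made, and in which cells it acts, is not given in the sources used here. No knockout mice on chow are among the groups. Whether libraries came from different animals is not stated, and p-values refer to the spread between samples, which may be technical.

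Hedgehog ligands are secreted, lipid-modified proteins. In their absence the receptor Ptch1 holds the membrane protein Smo inactive. Ligand binding releases Smo, which acts at the primary cilium and turns Gli2 and Gli3 away from being cut into repressors and towards activating transcription. Gli1 is an activator that is itself switched on by the pathway, as are Ptch1 and the decoy receptor Hhip, so their transcripts are commonly read as a sign of signalling. In the mouse artery wall, Gli1 marks mesenchymal progenitor cells of the adventitia, the outer layer. Dhh is known as a ligand made by Schwann cells of peripheral nerve and by endothelial cells.

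The libraries held 8665968 to 15340697 counts in genes, and 3 counts corresponded to 0.170 to 0.358 CPM (read counts scaled to a common library size, with TMM factors). Mpst had 3 to 5 counts in the 3 knockout libraries and 265 to 532 counts in the 8 wild-type libraries. All 8 smooth muscle markers had counts in each group, and their summed level was 22054 to 27613 CPM in KO_HFD_LNAME, 14298 to 27843 CPM in WT_HFD_LNAME and 14633 to 33448 CPM in WT_CD. Libraries that stood apart were WT_CD 1 and 2, where the ribosomal RNA precursor Rn45s took 10.1% and 17.4% of counts against 0.815% to 2.98% elsewhere, and WT_HFD_LNAME 3 and 4, where cardiac muscle markers summed to 676 and 1835 CPM against 48.6 to 138 CPM elsewhere. These are bulk samples, in which fewer cells of a type and less RNA per cell cannot be told apart.

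Promoter sequences are shown for Dhh, the member that passed the test below, for Gli2, an effector of the pathway, and for Hhip, one of its targets. Each window runs from 250 bases before to 50 bases after the annotated transcript start, is taken from RefSeq (GRCm38.p6) and is written 5′ to 3′ on the gene's strand. The capitals mark the 50 bases from the transcript start onward. RefSeq windows were held for 7 of the 9 genes, all except Gli1 and Shh.
Dhh promoter, chr15:98898491-98898790, minus strand: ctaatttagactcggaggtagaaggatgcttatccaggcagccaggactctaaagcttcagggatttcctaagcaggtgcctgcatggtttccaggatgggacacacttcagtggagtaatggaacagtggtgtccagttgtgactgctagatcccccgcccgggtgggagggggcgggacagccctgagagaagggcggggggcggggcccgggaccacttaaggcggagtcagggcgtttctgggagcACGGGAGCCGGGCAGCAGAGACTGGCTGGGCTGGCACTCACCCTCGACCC
Gli2 promoter, chr1:119053570-119053869, minus strand: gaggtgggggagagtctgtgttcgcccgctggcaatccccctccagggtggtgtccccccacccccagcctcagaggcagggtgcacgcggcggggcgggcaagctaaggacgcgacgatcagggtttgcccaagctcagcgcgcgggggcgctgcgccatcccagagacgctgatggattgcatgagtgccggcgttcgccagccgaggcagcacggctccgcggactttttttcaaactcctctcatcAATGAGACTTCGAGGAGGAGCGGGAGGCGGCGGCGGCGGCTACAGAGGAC
Hhip promoter, chr8:80057959-80058258, minus strand: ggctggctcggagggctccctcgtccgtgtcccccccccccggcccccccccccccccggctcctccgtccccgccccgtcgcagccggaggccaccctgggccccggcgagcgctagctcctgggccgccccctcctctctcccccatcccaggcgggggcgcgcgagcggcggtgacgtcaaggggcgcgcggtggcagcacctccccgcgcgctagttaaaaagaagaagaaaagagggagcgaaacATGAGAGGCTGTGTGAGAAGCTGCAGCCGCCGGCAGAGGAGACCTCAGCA

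The Gli binding consensus GACCACCCA was searched on both strands (TGGGTGGTC on the other), overlapping matches included. None of the 7 windows held it, either exactly or with 1 mismatch. Among all 32851 RefSeq windows of this length, 0.253% held the exact motif and 6.74% held it with at most 1 mismatch. These letters were thus absent from the windows of Dhh, Gli2, Gli3, Hhip, Ihh, Ptch1 and Smo, which says nothing about sites elsewhere in these genes.

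The 3 Gli factors are paralogs, and their counts could share reads only where their transcripts are alike. The longest exact stretches shared between pairs of GENCODE M21 transcripts are shown as a measure of that likeness. Exact stretches do not cover reads aligned with mismatches, so they set no bound on the sharing. The stretch common to Gli1 and Gli3 was 14 bases, and those between pairs of the 3 ligands were 16 or 17 bases. The longest 2 were of 23 and 25 bases.
Gli1 and Gli2 transcripts: gagaagccacacaagtgcacgtt
Gli2 and Gli3 transcripts: aagaaggagttcgtgtgccgctggc

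Against chow, treated wild-type aortas had more Dhh transcript, and their Gli1 and Gli2 levels, as TMM-scaled CPM, lay below those of each chow library without passing the test. Of the 8 members tested, 1 (Dhh) was called higher and 0 were called lower at an adjusted p under 0.05 (edgeR quasi-likelihood test, Benjamini-Hochberg adjustment over all 14303 genes tested), where 1.40% of all genes were called higher and 0.0839% lower. At an unadjusted p under 0.05 there were 5 of 8 members, against 15.1% of all genes. The libraries of WT_HFD_LNAME lay wholly above those of WT_CD for 1 member (Dhh) and wholly below for 2 (Gli1 and Gli2), and groups did not overlap in either direction for 7.85% of all genes. The separation of Gli1 and Gli2 depended on the scaling. On raw library totals both overlapped, with WT_HFD_LNAME up to 12.4 CPM against WT_CD from 12.3 CPM for Gli1, and up to 6.49 CPM against WT_CD from 4.72 CPM for Gli2. Of this pair, Gli2 but not Gli1 also overlapped with RLE or upper-quartile factors. The library that met the treated range in each case was WT_CD 3, which had the lowest TMM factor (0.814). The median log2 fold change was −0.66 over the 8 members and −0.03 over all tested genes, with 7 of the 8 below 0. With WT_CD 1 and 2, where Rn45s was high, left out, it was −0.022 over the members and −0.021 over all genes, with 4 of the 8 below 0. With DESeq2, 1 member was called higher (Dhh) and 2 lower (Gli1 and Gli2), where 4.38% of genes were called higher and 0.813% lower.

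Gli1 and Gli2 levels in each treated knockout library lay above those in each treated wild-type library, with neither gene past the test. In KO_HFD_LNAME against WT_HFD_LNAME, 0 of 8 members were called in either direction (edgeR), where 0.00699% of all genes were called higher and 0.00699% lower. At an unadjusted p under 0.05 there were 2 members (Gli1 and Gli2), against 5.12% of all genes, and DESeq2 called 0 members where it called 0.0803% of genes higher. The knockout libraries lay wholly above for 2 members and wholly below for 0, and groups did not overlap for 7.87% of all genes. The median log2 fold change was 0.32 over the members and −0.01 over all genes, with 6 of the 8 above 0.

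Set against chow, Dhh in the treated knockout missed the threshold with edgeR and passed it with DESeq2. In KO_HFD_LNAME against WT_CD, 0 of 8 members were called (edgeR), where 0.287% of all genes were called higher and 0.0280% lower. At an unadjusted p under 0.05 there was 1 member (Dhh), against 13.3% of all genes. Groups did not overlap for 1 of the 8 members (Dhh, above), a share close to the 13.1% of all genes. DESeq2 called 1 member higher (Dhh), where it called 2.76% of genes higher. The median log2 fold change was −0.16 over the members and −0.04 over all genes, and 0.31 over the members without WT_CD 1 and 2. The 3 comparisons share groups of libraries: a low WT_HFD_LNAME level enters the comparison with the knockout and the comparison with chow at once.

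**Figure D1:**
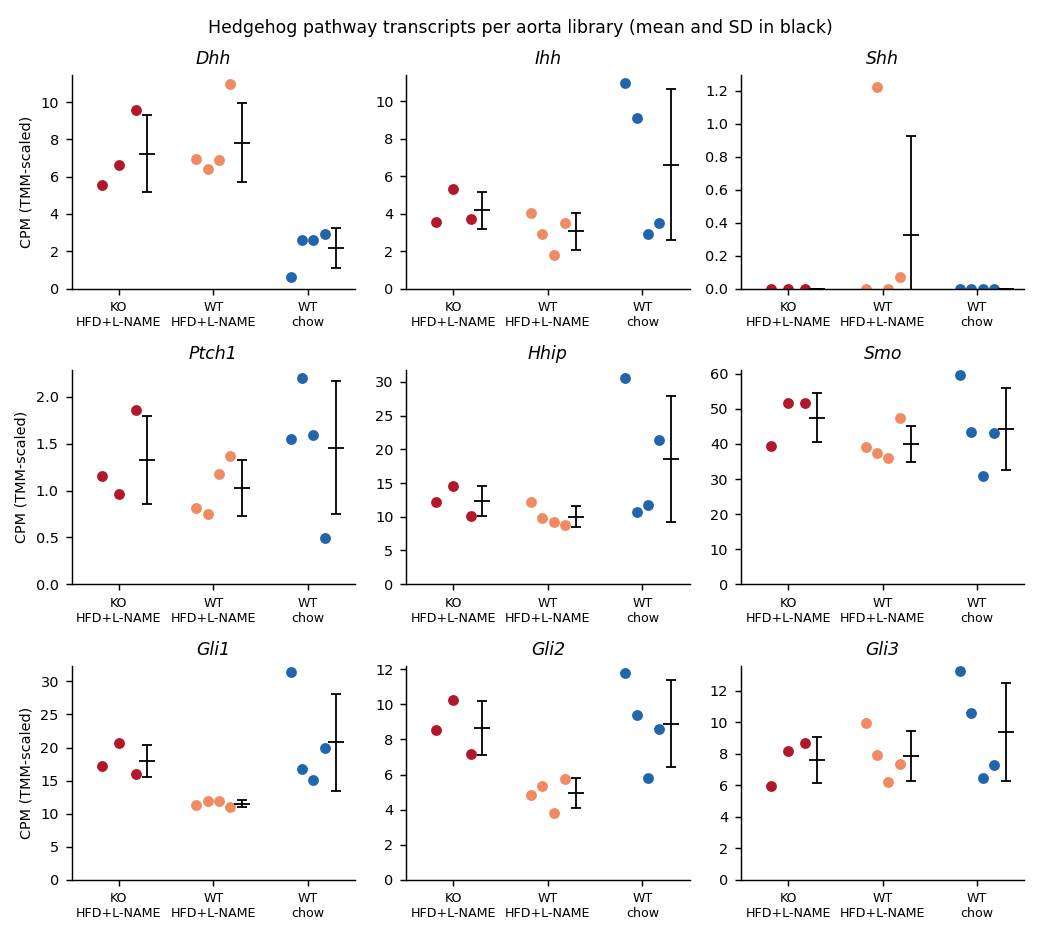
TMM-scaled CPM (vertical axes, each from 0) of the 9 hedgehog genes in 3 KO_HFD_LNAME, 4 WT_HFD_LNAME and 4 WT_CD libraries. Points are libraries and the black marks are the mean and SD of each group. Dhh is low in the 4 chow libraries, Gli1 and Gli2 are low in the 4 WT_HFD_LNAME libraries, and WT_CD 1 (the leftmost chow point) is the highest library for Gli1, Gli2, Gli3, Hhip, Ihh and Smo.

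Among the ligands, Dhh (desert hedgehog, chr15:98881615-98898562, minus strand, GRCm38.p6) was the one that differed between groups. It had 5.54, 6.62 and 9.55 CPM in the KO_HFD_LNAME libraries, 6.96, 6.40, 6.91 and 10.96 CPM in the WT_HFD_LNAME libraries, and 0.597, 2.60, 2.62 and 2.94 CPM in the WT_CD libraries. Both treated groups lay wholly above chow and overlapped each other. The means were 7.24 ± 2.08 CPM in KO_HFD_LNAME (SD, n = 3), 7.81 ± 2.114 CPM in WT_HFD_LNAME (SD, n = 4) and 2.19 ± 1.07 CPM in WT_CD (SD, n = 4). The log2 fold change of WT_HFD_LNAME over WT_CD was 1.80 (SE 0.38, adjusted p = 0.0473, edgeR). For KO_HFD_LNAME over WT_CD it was 1.69 (SE 0.40) and missed the threshold with edgeR (adjusted p = 0.0988), while DESeq2 gave an adjusted p of 0.00393. For KO_HFD_LNAME over WT_HFD_LNAME it was −0.11, with a 95% interval of −0.95 to 0.73.

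The Dhh call was close to the threshold. It was kept without WT_CD 1, the library of 5 counts, where the log2 fold change was 1.52 (adjusted p = 0.0480), and without WT_CD 3 (1.88, adjusted p = 0.0424). It was lost when any of the other 9 libraries was left out, at fold changes of 1.58 to 1.98 and adjusted p of 0.0527 to 0.129, and without both WT_CD libraries rich in Rn45s (1.49, adjusted p = 0.190) or both WT_HFD_LNAME libraries rich in cardiac transcripts (1.58, adjusted p = 0.249). DESeq2 gave an adjusted p of 0.000294 for the same comparison, and the authors' deposited table gives Dhh a log2 fold change of 1.34 with an adjusted p of 0.00153, among 3.43% of genes called higher and 0.404% called lower there. Whether the deposited fold changes were shrunk towards 0 is not given, so they may not be on the scale of those computed here.

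Dhh shares exon sequence with neighbours. It overlaps Rhebl1, a Ras-like GTPase gene on the same strand, over 546 exon bases, and the opposite-strand Gm49442, not analysed here, over 1107 exon bases. Whether the counting used strand is not given in the sources used here, so reads from overlapping genes cannot be told apart. Rhebl1 had 3.02 ± 0.57 CPM in KO_HFD_LNAME (SD, n = 3), 5.33 ± 1.47 CPM in WT_HFD_LNAME (SD, n = 4) and 5.18 ± 1.05 CPM in WT_CD (SD, n = 4). Its log2 fold change was 0.04 for WT_HFD_LNAME over WT_CD, where Dhh's was 1.80.

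Endothelial and Schwann cell markers were summed beside Dhh. The 10 endothelial markers, none at 0 in any group, summed to 746 to 929 CPM in KO_HFD_LNAME, 716 to 1292 CPM in WT_HFD_LNAME and 246 to 581 CPM in WT_CD. All 10 lay above 0 in WT_HFD_LNAME over WT_CD at a median of 1.25 on the log2 scale, and 1 of them passed the test, where 1.40% of all genes were called higher. The 10 Schwann cell markers, none at 0 in any group, summed to 166 to 196 CPM in KO_HFD_LNAME, 212 to 393 CPM in WT_HFD_LNAME and 45.2 to 113 CPM in WT_CD. All 10 again lay above 0, with a median of 2.25, and 5 passed the test. In KO_HFD_LNAME over WT_HFD_LNAME, where Dhh was at −0.11, the Schwann sums lay wholly lower and the median of the list was −0.70, with 0 markers called (edgeR). Pearson's r of log2(CPM + 0.5) between Dhh and the endothelial sum was 0.91 over the 11 libraries and 0.72 after each group's mean was subtracted. With the Schwann sum these values were 0.88 and 0.49. Library by library, the order of Dhh and of the sums matched in part. WT_CD 1, with the least Dhh, had the lowest endothelial sum (246 CPM), but its Schwann sum (46.8 CPM) lay above that of WT_CD 2 (45.2 CPM). WT_HFD_LNAME 4, with the most Dhh, had the highest Schwann sum (393 CPM), but its endothelial sum (1176 CPM) lay below that of WT_HFD_LNAME 3 (1292 CPM). KO_HFD_LNAME 3, next in Dhh at 9.55 CPM, had the lowest endothelial sum of its group (746 CPM). The part of these cell types in the Dhh difference was not tested.

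**Figure D2:**
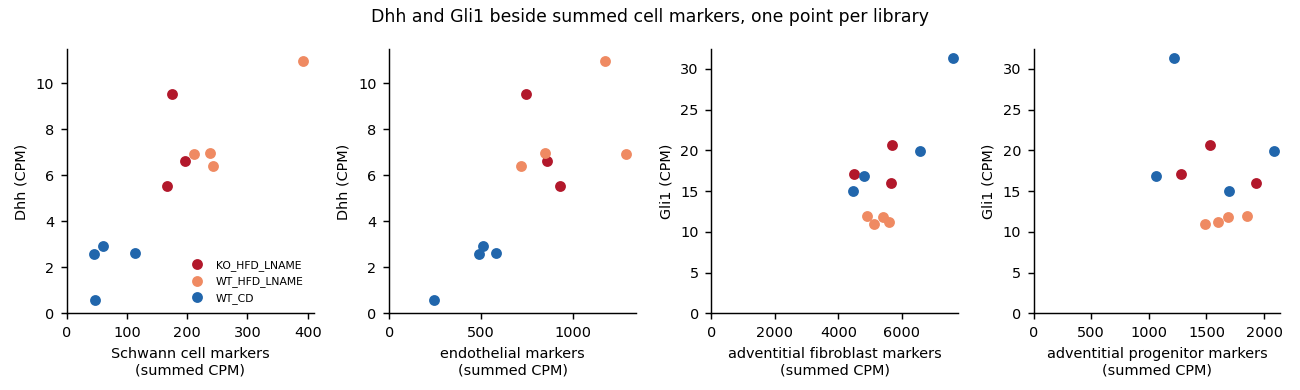
Dhh (left 2 panels) and Gli1 (right 2 panels) in TMM-scaled CPM against the summed CPM of Schwann cell, endothelial, adventitial fibroblast and adventitial progenitor markers, with 1 point per library coloured by group. The 4 chow libraries have the least Dhh, with Schwann sums up to 113 CPM and endothelial sums up to 581 CPM. The 4 WT_HFD_LNAME libraries have the least Gli1 at fibroblast sums of 4900 to 5588 CPM, inside the range of the other groups.

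Ihh (Indian hedgehog, chr1:74945315-74951672, minus strand) had 3.54, 5.32 and 3.71 CPM in KO_HFD_LNAME, 4.05, 2.92, 1.77 and 3.49 CPM in WT_HFD_LNAME, and 10.98, 9.10, 2.90 and 3.50 CPM in WT_CD. The chow libraries split: WT_CD 1 and 2, those rich in Rn45s, were the highest of the 11, and the other two lay within the treated range. In WT_HFD_LNAME over WT_CD the log2 fold change was −1.10 (SE 0.43, adjusted p = 0.254, edgeR) and became −0.07 without WT_CD 1 and 2. For KO_HFD_LNAME it was 0.45 (SE 0.46) over WT_HFD_LNAME and −0.64 (SE 0.46) over WT_CD.

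Shh (sonic hedgehog, chr5:28456840-28467101, minus strand) was at 0 in the 3 KO_HFD_LNAME libraries and the 4 WT_CD libraries. It had 0, 13, 0 and 1 counts in WT_HFD_LNAME 1 to 4, the 13 counts being 1.22 CPM in a single library. At these depths a count of 0 allows a level of up to 0.170 to 0.358 CPM, depending on the library, for counting error only. Shh was not tested, and its transcript was not detectable in 9 of the 11 libraries.

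At the membrane, Smo, the signal transducer, was the most abundant member and showed no difference between groups past the test. Smo (chr6:29735497-29761366, plus strand) had 39.3, 51.7 and 51.6 CPM in KO_HFD_LNAME, 39.0, 37.5, 36.1 and 47.3 CPM in WT_HFD_LNAME, and 59.7, 43.5, 30.9 and 43.2 CPM in WT_CD. The chow libraries spanned the whole range of the other groups. The 95% intervals of the log2 fold change were −0.55 to 0.26 for WT_HFD_LNAME over WT_CD, −0.19 to 0.69 for KO_HFD_LNAME over WT_HFD_LNAME and −0.34 to 0.54 for KO_HFD_LNAME over WT_CD.

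Ptch1, the receptor that holds Smo inactive (chr13:63508328-63573460, minus strand), was measured by few counts, 7 to 27 per library. Its level was 0.963 to 1.86 CPM in KO_HFD_LNAME, 0.753 to 1.37 CPM in WT_HFD_LNAME and 0.490 to 2.201 CPM in WT_CD, and all 3 groups overlapped. The intervals were wide, with a log2 fold change of −0.47 (95% interval −1.45 to 0.51) for WT_HFD_LNAME over WT_CD and 0.35 (−0.68 to 1.38) for KO_HFD_LNAME over WT_HFD_LNAME.

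Hhip, a decoy that binds hedgehog ligands and is a target of the pathway (chr8:79965850-80058060, minus strand), had 12.2, 14.6 and 10.2 CPM in KO_HFD_LNAME, 12.2, 9.88, 9.18 and 8.83 CPM in WT_HFD_LNAME, and 30.7, 10.7, 11.7 and 21.4 CPM in WT_CD. WT_CD 1 and 4 stood above every treated library, and WT_CD 2 and 3 lay among them. The log2 fold change of WT_HFD_LNAME over WT_CD was −0.89 (SE 0.31, unadjusted p = 0.0150, adjusted p = 0.189, edgeR). Without WT_CD 1 it was −0.55. For KO_HFD_LNAME it was 0.30 (SE 0.33) over WT_HFD_LNAME and −0.59 (SE 0.33) over WT_CD.

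Among the Gli factors, Gli1 and Gli2 were lowest in the treated wild type, and Gli3 showed no such pattern. Gli1, the activator whose transcript reports pathway activity (chr10:127329882-127341579, minus strand), had 17.2, 20.7 and 16.0 CPM in KO_HFD_LNAME, 11.3, 11.9, 12.0 and 10.96 CPM in WT_HFD_LNAME, and 31.4, 16.8, 15.1 and 19.9 CPM in WT_CD. On this TMM scale the 4 WT_HFD_LNAME libraries were the lowest 4 of the 11 and spanned 10.96 to 11.97 CPM, and the other two groups overlapped each other. The means were 17.97 ± 2.46 CPM in KO_HFD_LNAME (SD, n = 3), 11.5 ± 0.48 CPM in WT_HFD_LNAME (SD, n = 4) and 20.8 ± 7.34 CPM in WT_CD (SD, n = 4).

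The log2 fold change of Gli1 in WT_HFD_LNAME over WT_CD was −0.85 (SE 0.21, unadjusted p = 0.00186). Its adjusted p was 0.0703 with edgeR, on the other side of the threshold from DESeq2 (adjusted p = 0.00825) and from the authors' deposited table, which gives −0.75 with an adjusted p of 0.0303. Without WT_CD 1, its highest library, the log2 fold change was −0.59 (adjusted p = 0.0946), and without WT_CD 3, its lowest chow library, it was −0.97 and passed the test (adjusted p = 0.0307). The estimate stayed below 0 in all 20 alternatives run, from −0.97 to −0.59.

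For KO_HFD_LNAME over WT_HFD_LNAME the log2 fold change of Gli1 was 0.64 (SE 0.22, unadjusted p = 0.0144), a level higher in 3 of 3 knockout libraries than in each of the 4 wild-type libraries. It missed the threshold after adjustment with edgeR (adjusted p = 0.815) and with DESeq2 (adjusted p = 0.619). The authors' deposited table gives Gli1 a log2 fold change of 0.58 with an adjusted p of 0.0341, among 0.251% of genes called higher there. With the fit held to these 2 groups, edgeR gave 0.64 (SE 0.13, unadjusted p = 0.000951, adjusted p = 0.608). DESeq2 was run here only with all 3 groups, and the model behind the authors' table is not given in the sources used here. The call was seen in the authors' table alone, no like fit was tried, and the cause of the difference was not tested. Against chow, the knockout log2 fold change was −0.21 (95% interval −0.69 to 0.28).

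Gli1 shares 62 exon bases with the opposite-strand gene Arhgap9 and 265 with Gm47200, not analysed here. Arhgap9 had 5.74 ± 1.15 CPM in KO_HFD_LNAME (SD, n = 3), 3.06 ± 0.41 CPM in WT_HFD_LNAME (SD, n = 4) and 2.58 ± 1.19 CPM in WT_CD (SD, n = 4). Its log2 fold change was 0.91 for KO_HFD_LNAME over WT_HFD_LNAME (adjusted p = 0.842, edgeR) and 0.22 for WT_HFD_LNAME over WT_CD. Its part in the Gli1 counts was not tested.

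Gli2, the main activator downstream of Smo (chr1:118834061-119054405, minus strand), followed the order of Gli1. It had 8.54, 10.2 and 7.15 CPM in KO_HFD_LNAME, 4.86, 5.36, 3.79 and 5.75 CPM in WT_HFD_LNAME, and 11.8, 9.40, 5.81 and 8.61 CPM in WT_CD. On this scale the WT_HFD_LNAME libraries were again the lowest 4 of the 11, the highest of them just under WT_CD 3, an order lost with each of the 3 other scalings given above. The log2 fold change of WT_HFD_LNAME over WT_CD was −0.84 (SE 0.23, unadjusted p = 0.00367), with an adjusted p of 0.0958 with edgeR, 0.0255 with DESeq2 and 0.0302 with edgeR without WT_CD 3. It passed in 2 of the 20 alternatives run. Without WT_CD 1 it was −0.68 (adjusted p = 0.217, edgeR), and without WT_CD 1 and 2 it was −0.55 (adjusted p = 0.454, edgeR). For KO_HFD_LNAME over WT_HFD_LNAME it was 0.81 (SE 0.24, unadjusted p = 0.00683, adjusted p = 0.762, edgeR). The authors' deposited table gives Gli2 −0.73 (adjusted p = 0.0647) and 0.64 (adjusted p = 0.154) for these comparisons.

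Gli3, which acts mostly as a repressor when the pathway is off (chr13:15463723-15730026, plus strand), was at 5.93 to 8.66 CPM in KO_HFD_LNAME, 6.24 to 9.96 CPM in WT_HFD_LNAME and 6.46 to 13.2 CPM in WT_CD, and all 3 groups overlapped. Its log2 fold change was −0.25 (95% interval −0.80 to 0.29) for WT_HFD_LNAME over WT_CD and −0.05 (−0.63 to 0.54) for KO_HFD_LNAME over WT_HFD_LNAME. Both intervals end short of the estimates for Gli1 and Gli2, but the difference between the Gli factors was not tested.

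**Figure D3:**
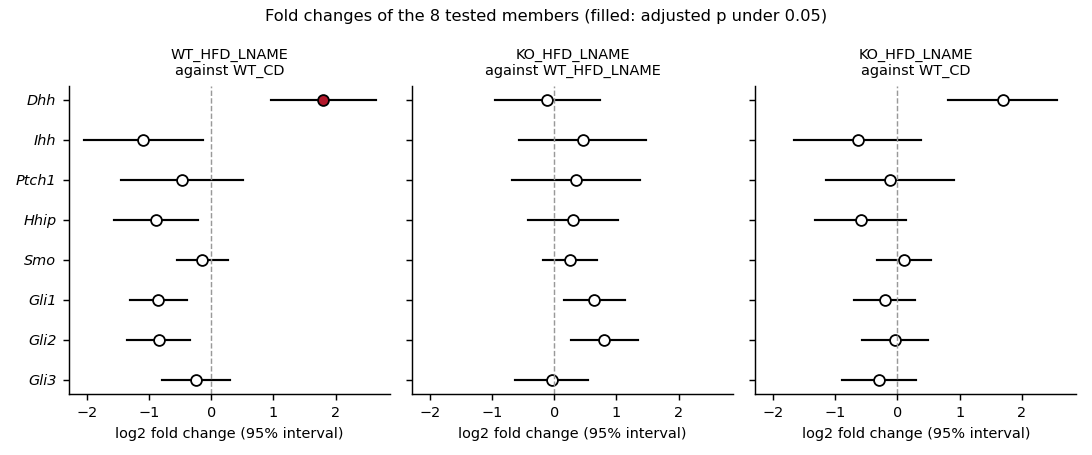
Log2 fold change (horizontal axis, first named group over the second) of the 8 tested hedgehog genes in the 3 comparisons, with 95% intervals from the edgeR fit. The filled point, Dhh in WT_HFD_LNAME against WT_CD at 1.80, is the only adjusted p under 0.05 with edgeR. Gli1 and Gli2 lie at −0.85 and −0.84 in that comparison and at 0.64 and 0.81 in KO_HFD_LNAME against WT_HFD_LNAME.

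Markers of the adventitia, the layer where Gli1 is known as a marker, were summed beside it. The 10 adventitial fibroblast markers, none at 0 in any group, summed to 4489 to 5683 CPM in KO_HFD_LNAME, 4900 to 5588 CPM in WT_HFD_LNAME and 4465 to 7611 CPM in WT_CD, and the median log2 change was −0.19 in WT_HFD_LNAME over WT_CD and 0.01 in KO_HFD_LNAME over WT_HFD_LNAME. The 12 progenitor markers, none at 0 in any group, summed to 1276 to 1929 CPM in KO_HFD_LNAME, 1489 to 1850 CPM in WT_HFD_LNAME and 1066 to 2090 CPM in WT_CD, with medians of 0.34 and −0.02 in these comparisons. Of either list, 0 members passed the test in any comparison (edgeR). The library with the most Gli1, WT_CD 1, had the highest fibroblast sum (7611 CPM) but not the highest progenitor sum (1216 CPM).

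Compared per length, in CPM per kilobase of exon, Smo and Gli1 led and Ptch1 came last of the 8 tested genes in each group, while the place of Dhh differed. Smo and Gli1 were at 8.45 ± 1.26 and 3.60 ± 0.49 in KO_HFD_LNAME (SD, n = 3), 7.11 ± 0.90 and 2.30 ± 0.10 in WT_HFD_LNAME (SD, n = 4) and 7.88 ± 2.10 and 4.16 ± 1.47 in WT_CD (SD, n = 4). Dhh came next in both treated groups, at 1.65 ± 0.47 in KO_HFD_LNAME and 1.77 ± 0.48 in WT_HFD_LNAME. In chow it was at 0.498 ± 0.244, below Gli3 at 0.980 ± 0.326. Ihh, Hhip and Gli2 followed one another within their spread in KO_HFD_LNAME, at 1.38 ± 0.32, 1.36 ± 0.24 and 1.26 ± 0.23. Neighbours in the order whose libraries did not overlap were Smo and Gli1, Gli1 and Dhh, Gli2 and Gli3, and Gli3 and Ptch1 in KO_HFD_LNAME. In WT_HFD_LNAME they were Smo and Gli1, Dhh and Hhip, and Gli2 and Ptch1, and in WT_CD only Gli3 and Dhh. The ranges of the other neighbours overlapped. Ranges were read without pairing the genes by library, so an overlap does not mean that neighbours did not differ. In WT_CD 1 to 4, Smo was at 10.6, 7.74, 5.50 and 7.68. Gli1 was lower in each of these libraries, at 6.28, 3.36, 3.02 and 3.98. Ptch1 was at 0.0934 ± 0.0332 in KO_HFD_LNAME, 0.0725 ± 0.0209 in WT_HFD_LNAME and 0.103 ± 0.050 in WT_CD. Its annotated exons add up to 14185 bases, alternative exons included, which lowers a level given per length.

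**Figure D4:**
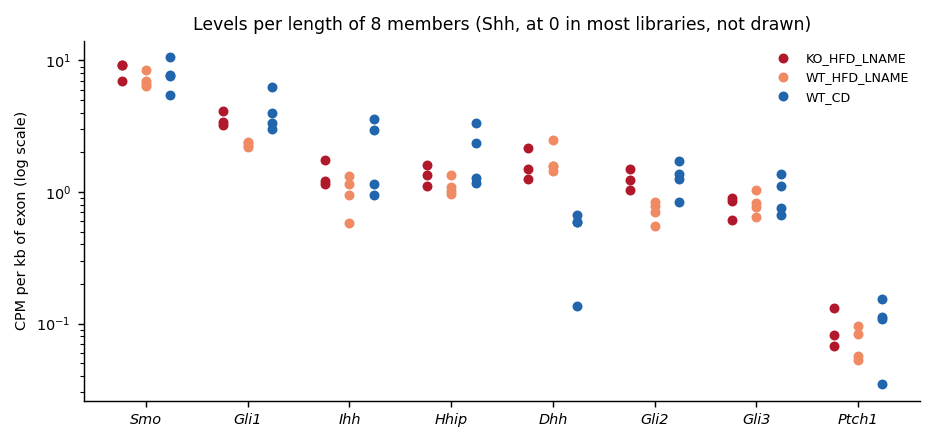
Level of 8 hedgehog genes in CPM per kilobase of exon (vertical axis, log scale) in each library, with the groups side by side in the order KO_HFD_LNAME, WT_HFD_LNAME and WT_CD. Genes are ordered by their mean over the 11 libraries, from Smo at 7.76 to Ptch1 at 0.0892. Dhh has the widest gap between chow and treated libraries.

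The genes most like Gli1 within groups were sought by Pearson's r of log2(CPM + 0.5) over the 11 libraries after each group's mean was subtracted, among 12770 genes. The 5 highest were Slc6a6, a taurine transporter (0.96), Nfyb, a subunit of the NF-Y transcription factor (0.96), Wdsub1 (0.96), Spry1, an inhibitor of growth factor signalling (0.95), and Zfp518b, a zinc finger protein (0.95). Over the 11 libraries with group means kept, r was 0.72 for Slc6a6, 0.074 for Nfyb, 0.67 for Wdsub1, 0.28 for Spry1 and 0.75 for Zfp518b. The first set of values describes how libraries of 1 group differ from each other, and both sets share the libraries' depth and composition. Among the members, the likeness to Gli1 was 0.89 for Hhip, 0.72 for Smo, 0.70 for Gli2, 0.55 for Gli3 and Ihh, −0.22 for Ptch1 and −0.82 for Dhh. Of the 11 libraries, WT_CD 1 had the most Gli1 (31.4 CPM), Hhip (30.7 CPM) and Smo (59.7 CPM) and the least Dhh (0.597 CPM). The likeness was not computed without this library.

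The other genes of the pathway were followed in 4 lists, for ligand release and co-receptors, cytoplasmic transduction, the primary cilium and reported Gli response genes. With edgeR, 0 tested members of any of the 4 lists passed the test, in either direction and in any of the 3 comparisons. For ligand release and co-receptors, 11 members of 12 were tested, and the median log2 fold change was 0.05 for WT_HFD_LNAME over WT_CD and 0.37 for KO_HFD_LNAME over WT_HFD_LNAME. For cytoplasmic transduction, 19 members of 20 gave medians of −0.14 and 0.11. For the primary cilium, 18 members of 18 gave −0.12 and −0.06, and for the Gli response genes 11 members of 12 gave −0.33 and 0.07. The medians over all genes in these comparisons were −0.03 and −0.01.

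The 2 list members with the smallest p in WT_HFD_LNAME against WT_CD are given for each list. Disp2, related to the transporter that releases hedgehog ligand, had 0.923, 1.02 and 4.19 CPM in KO_HFD_LNAME, 4.86, 4.89, 0.758 and 12.3 CPM in WT_HFD_LNAME, and 0, 0, 0.187 and 0.840 CPM in WT_CD. WT_HFD_LNAME 3 lay within the chow range and the others above it, with a log2 fold change of 4.21 (SE 1.05, adjusted p = 0.0750 with edgeR and 0.00124 with DESeq2). Scube1, of a family that carries ligand away from the cell, had a log2 fold change of 2.37 (SE 0.63, adjusted p = 0.0892 with edgeR and 0.0115 with DESeq2), and the same WT_HFD_LNAME 3 was its lowest library, at 0.337 CPM.

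Without WT_HFD_LNAME 3, both passed with edgeR, Disp2 at 4.57 (adjusted p = 0.0359) and Scube1 at 2.73 (adjusted p = 0.00992). Disp2 passed in 2 of 20 alternatives, with adjusted p up to 0.347, and Scube1 in 3 of 19, with adjusted p up to 0.349 (edgeR). The 8 sympathetic neuron markers moved beside them, with a median of 5.44, 6 members called higher in WT_HFD_LNAME over WT_CD (1.40% of all genes) and sums of 127 to 311 CPM in KO_HFD_LNAME, 94.0 to 697 CPM in WT_HFD_LNAME and 66.9 to 131 CPM in WT_CD. Their part in the Disp2 and Scube1 values was not tested.

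In the transduction list, Btrc, a ubiquitin ligase subunit that helps cut Gli3, had a log2 fold change of −0.31 (SE 0.10, adjusted p = 0.140, edgeR), and Ulk3, a kinase acting on Gli proteins, −0.54 (SE 0.24, adjusted p = 0.325, edgeR). In the cilium list, Ift172, an intraflagellar transport protein, averaged 23.3 ± 2.67 CPM in WT_HFD_LNAME and 32.3 ± 3.26 CPM in WT_CD (SD, n = 4 each). Every WT_HFD_LNAME library lay below every chow library, as for Btrc, where groups did not overlap for 7.85% of all genes. For Ift172, the KO_HFD_LNAME libraries (22.2 to 25.9 CPM) also lay below every chow library (28.3 to 35.2 CPM), where groups did not overlap for 13.1% of all genes. The log2 fold change of Ift172 in WT_HFD_LNAME over WT_CD was −0.47 (SE 0.12), with an adjusted p of 0.0694 with edgeR and 0.0107 with DESeq2. Dync2h1, the motor of return transport in the cilium, was at −0.46 (SE 0.22, adjusted p = 0.355, edgeR).

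Among reported Gli response genes, Osr1, a mesenchymal transcription factor, averaged 110 ± 24.8 CPM in WT_HFD_LNAME and 224 ± 104 CPM in WT_CD (SD, n = 4 each). Its log2 fold change was −1.03 (SE 0.31), with an adjusted p of 0.132 with edgeR and 0.0325 with DESeq2, and without WT_CD 3 it was −1.21 (adjusted p = 0.0448, edgeR). It passed in 2 of the 20 alternatives run, over which it ran from −1.21 to −0.53, with adjusted p up to 0.536 (edgeR). Jag2, a Notch ligand, was at 8.69 ± 1.71 CPM in WT_HFD_LNAME and 4.36 ± 1.90 CPM in WT_CD, with a log2 fold change of 0.999 (SE 0.31, adjusted p = 0.140 with edgeR and 0.0382 with DESeq2). Its WT_HFD_LNAME libraries lay wholly above chow, where groups did not overlap for 7.85% of all genes.

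A further 3 pathway genes are given because their libraries stood apart, and were chosen after their values were seen. Boc, a co-receptor for hedgehog ligands, had 35.0, 43.9 and 33.3 CPM in KO_HFD_LNAME against 27.7, 26.6, 24.8 and 28.8 CPM in WT_HFD_LNAME, a log2 fold change of 0.47 (SE 0.22, adjusted p = 0.950, edgeR). As for Gli1 and Gli2, the knockout libraries lay wholly above for Boc and the test was not passed. Groups did not overlap for 7.87% of all genes in this comparison.

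Kif3a, a motor subunit that builds the cilium, had 27.7, 31.9 and 35.9 CPM in KO_HFD_LNAME, 88.6, 60.7, 44.2 and 64.9 CPM in WT_HFD_LNAME, and 72.2, 103, 56.2 and 86.2 CPM in WT_CD. All 3 knockout libraries lay below all 8 wild-type libraries on this TMM scale, but on raw library totals the highest knockout library (39.6 CPM) passed the lowest WT_HFD_LNAME library (38.1 CPM). Groups did not overlap for 7.87% of all genes in KO_HFD_LNAME against WT_HFD_LNAME and for 13.1% in KO_HFD_LNAME against WT_CD. The log2 fold change of Kif3a was −1.02 (SE 0.25, adjusted p = 0.726, edgeR) over WT_HFD_LNAME and −1.32 (SE 0.25) over WT_CD. For WT_CD the adjusted p was 0.0579 with edgeR and 0.000289 with DESeq2, which called 107 of 16205 genes lower there. The edgeR value over WT_CD passed the test without WT_CD 3 (−1.45, adjusted p = 0.0319) and without WT_HFD_LNAME 3 (−1.32, adjusted p = 0.0360). Across the 20 alternatives run, the log2 fold change over WT_CD was −1.45 to −1.16, with adjusted p up to 0.224 (edgeR), and passed in 3.

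Mycn, a growth regulator and reported Gli target, had 8, 4 and 6 counts in KO_HFD_LNAME, 7, 8, 4 and 9 counts in WT_HFD_LNAME and 0 counts in each of the 4 WT_CD libraries. It did not pass the filter on low counts of the edgeR fit, and DESeq2 gave an adjusted p of 0.00148 for WT_HFD_LNAME against WT_CD. In CPM, Mycn was at 0.226 to 0.616 in KO_HFD_LNAME and 0.337 to 0.753 in WT_HFD_LNAME, and 0 counts allow up to 0.210 to 0.358 CPM in WT_CD.

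**Figure D5:**
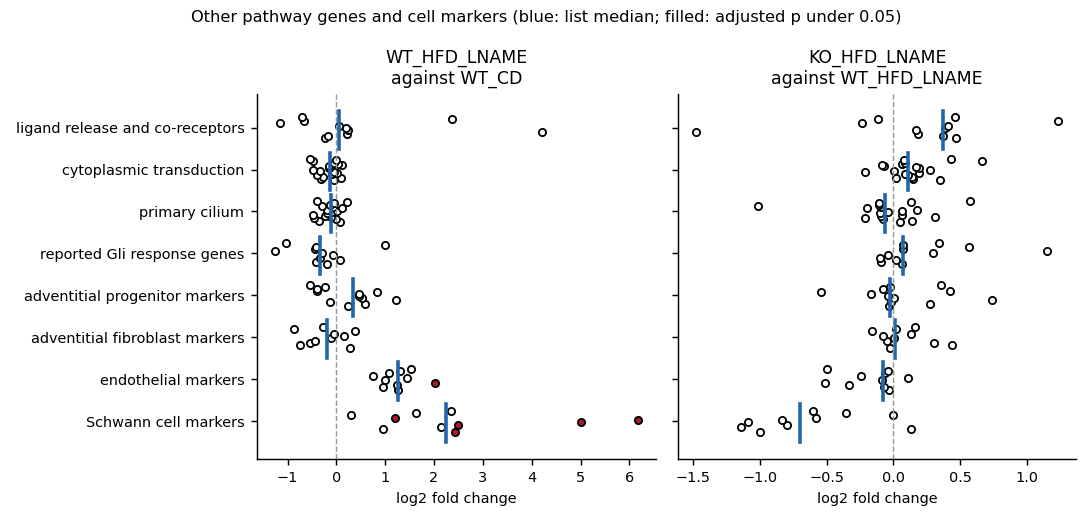
Log2 fold change (horizontal axis) of each tested member of 4 hedgehog pathway lists and 4 cell marker lists in WT_HFD_LNAME against WT_CD (left) and KO_HFD_LNAME against WT_HFD_LNAME (right). Blue bars are list medians and filled points passed an adjusted p under 0.05 (edgeR). Filled points occur in the left panel in the endothelial list (1) and the Schwann cell list (5), and in none of the pathway lists.

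The remaining marker lists are given for WT_HFD_LNAME over WT_CD, as counts of tested members called higher with edgeR, where 1.40% of all genes were called higher and 0.0839% lower. These were 0 of 8 for smooth muscle (median log2 fold change −0.29), 1 of 8 for adipocytes (0.51), 0 of 7 for cardiac muscle (3.74), 0 of 8 for mesothelium (4.80), 2 of 7 for B cells (1.48), 0 of 8 for macrophages (−0.17) and 0 of 6 for erythroid cells (−2.03). None of their members was called lower in that comparison.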

How the data were processed

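The authors deposited read counts per gene as whole numbers for 11 libraries of aorta, with no normalization applied. The tools were Trimmomatic 0.39, HISAT2 2.2.1 and featureCounts 2.0.3 and the genome build was GRCm38/mm10, per the submitters' processing notes. The annotation, the strand setting and the handling of reads with several alignments are not given in the sources used here. The authors also deposited, for 2 comparisons, a table of DESeq2 results (version 2.11.40.7, per the same notes) with log2 fold changes, p-values and adjusted p-values. Whether these fold changes were shrunk towards 0 is not given. For Disp2 in WT_HFD_LNAME against WT_CD the deposited value is 1.17, where edgeR here gave 4.21. The deposited base mean, a normalized signal, and the deposited Wald score are not interpreted.

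The counts were analysed in R 4.3.3. All 3 groups were fitted together with edgeR 4.0.16 (filterByExpr, TMM factors 0.814 to 1.15, robust glmQLFit, two-sided glmQLFTest), which tested 14303 genes. p-values were adjusted over all of them by the Benjamini-Hochberg method, and a gene was called at an adjusted p under 0.05. DESeq2 1.42.0 (Wald test, no shrinkage) was an alternative. SE and intervals come from the F statistic. Total counts of 8665968 to 15340697 limit the precision of low genes, and limits from 0 counts use 3 counts.

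Levels per length use the union of exons in GENCODE M21. Positions and promoters are RefSeq's, in GRCm38.p6. Gene lists numbered 17, and 1 of their 177 genes was not found. The named genes are the 9 members, list members called in a comparison or else the 2 with the smallest p against chow, and the 5 genes most like Gli1, with exceptions stated where they stand. Members and lists were chosen with earlier results of these data known. The alternatives were other size factors, DESeq2, no filter, a fit of 2 groups, a replicate block and leaving out libraries or Rn45s and mitochondrial genes. Whether groups separated was also read under other scalings, an alternative chosen after seeing the data.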

Additional observations from a re-analysis of the deposited data

Results flagged for a closer look

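In groups of 4 libraries, the highest or lowest value was compared with its nearest neighbour, and a gap above Dixon's critical share of the group's whole range was marked. Chance marks about 1 in 20 groups where values are normally distributed, and 17 groups of members were screened. Dhh was marked at both ends: WT_HFD_LNAME 4 was highest at 10.96 CPM with a gap of 0.876 of the range, and WT_CD 1 was lowest at 0.597 CPM, which is 5 counts, with a gap of 0.855. WT_HFD_LNAME 4 also had the highest sums of Schwann cell markers (393 CPM) and cardiac muscle markers (1835 CPM), but not of endothelial markers (1176 CPM, against 1292 CPM in WT_HFD_LNAME 3), and WT_CD 1 had the lowest endothelial sum (246 CPM) and 10.1% of counts in Rn45s. The part of these in the Dhh values was not tested. The log2 fold change of Dhh in WT_HFD_LNAME over WT_CD was 1.58 without WT_HFD_LNAME 4 and 1.52 without WT_CD 1. Shh was marked in WT_HFD_LNAME 2 at 1.22 CPM, which is 13 counts, with a gap of 0.944. The other libraries of that group had 0 or 1 counts, so the rate of 1 in 20 does not hold for this mark. The opposite-strand gene 9530036O11Rik, which shares 446 exon bases with Shh, had 0 counts in all 11 libraries.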

How the results depend on the processing

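Over 480 alternative estimates of the 8 tested members, 439 kept their direction and side of the threshold, 5 passed it where the reported value did not, 14 lost it and 22 changed sign. All 14 losses were of Dhh in WT_HFD_LNAME against WT_CD, whose log2 fold change ran from 1.49 to 1.98. Of the other named pathway genes, 207 of 219 estimates kept direction and side, and 12 passed the threshold. Members called in WT_HFD_LNAME against WT_CD numbered 1 as reported, 3 with DESeq2, and 0 without a low-count filter, with only the 2 groups fitted, with the replicate block, without both WT_CD libraries rich in Rn45s and without both WT_HFD_LNAME libraries rich in cardiac transcripts. Leaving out 1 library gave 0 to 3, the 3 (Dhh, Gli1 and Gli2) being without WT_CD 3. In KO_HFD_LNAME against WT_CD the 0 became 1 with DESeq2.

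Genes called in WT_HFD_LNAME against WT_CD numbered 212 as reported, 863 with DESeq2, 138 without a filter, 31 with 2 groups, 42 with the block, 0 without the Rn45s-rich libraries, 59 without the cardiac-rich libraries, and 2 (without WT_CD 2) to 521 (without WT_CD 3) with 1 library left out. In KO_HFD_LNAME against WT_HFD_LNAME the 2 genes became 34 with DESeq2, 1 with 2 groups, the block or without the cardiac-rich libraries, and 1 to 3 with 1 library left out. In KO_HFD_LNAME against WT_CD the 45 became 80 with upper-quartile factors, 555 with DESeq2, 29 without a filter, 3 with 2 groups, 13 with the block, 4 without the Rn45s-rich libraries, and 4 to 102 with 1 left out. The cause of these differences between settings was not tested.

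Each sign change was of a member not called in that comparison. Without the Rn45s-rich libraries, WT_HFD_LNAME over WT_CD gave Gli3 0.19, Ptch1 0.023 and Smo 0.11, and KO_HFD_LNAME over WT_CD gave Gli1 0.039, Gli2 0.26, Gli3 0.15, Ptch1 0.37 and Ihh 0.39. Without the cardiac-rich libraries Dhh was 0.11 in KO_HFD_LNAME over WT_HFD_LNAME. With 1 library left out, Smo ran from −0.28 to 0.029 in WT_HFD_LNAME over WT_CD, Gli3 from −0.15 to 0.091 and Dhh from −0.36 to 0.10 in KO_HFD_LNAME over WT_HFD_LNAME, and in KO_HFD_LNAME over WT_CD Ptch1 from −0.45 to 0.16, Gli2 from −0.19 to 0.12, Gli1 from −0.33 to 0.058 and Smo from −0.035 to 0.28.

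The reported fit did not pair samples by replicate number. Same-numbered libraries' deviations from their group means correlated at −0.23 to 0.59, not above 0.1 for every pair. With so few libraries a group, these values cannot exclude pairing or a shared batch. With the replicate number as a block, Dhh was 1.88 (adjusted p = 0.0565, edgeR) in WT_HFD_LNAME over WT_CD and 0.038 in KO_HFD_LNAME over WT_HFD_LNAME, and Gli2 was 0.018 in KO_HFD_LNAME over WT_CD. Mean levels per length moved by less than the spread with raw library totals. On those totals the members whose libraries separated WT_HFD_LNAME from WT_CD numbered 1 (Dhh) in place of 3, and 2 (Dhh and Gli1) with RLE or upper-quartile factors. In KO_HFD_LNAME against WT_HFD_LNAME they were 2 (Gli1 and Gli2) under each of these scalings. The median over the members in WT_HFD_LNAME over WT_CD ran from −0.80 to −0.49 with 1 library left out and was −0.022 without the Rn45s-rich libraries. Shh could not be fitted, and Ptch1, at 7 to 27 counts a library, has the widest limits from depth.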
